A study of Mus musculus with 12 samples.

Results

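Atrial heart muscle carries its own forms of contractile, calcium-handling, ion channel and hormone genes. RNA of 8 such genes was followed here in pools of mouse aortic valves, a tissue that is dissected from the root of the aorta next to both atria and ventricles. The genes were Sln, Nppa, Stard10, Kcna5, Kcnj3, Bmp10, Myl4 and Myl7, chosen by name as a measure of atrial muscle attached to the valves. They were chosen with earlier results of these data known. Each was found by its symbol among the 20620 genes of the count table, and all 8 were among the 19346 genes that passed the filter on low counts. Bmp10 passed it with 266 counts in all, of which 216 came from 1 genotype.

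The valves were collected at postnatal day 10 from 3 groups of mice, and each library was made from a pool of 3 valves, with 4 pools a group. The first group was Notch1+/-;Gata5-/-, which lacks 1 copy of Notch1 and both copies of Gata5 and is called Gata5-null below. The second was Notch1+/-;Gata5+/-, which lacks 1 copy of each gene and is called double-heterozygous below, and the third was wildtype. Both mutant groups share the Notch1+/- genotype, so no comparison here varies Notch1 alone, and the labels name neither the strain nor the part of either gene that the alleles lack. The pool is the unit of replication: p-values measure the spread between pools, and the labels do not say whether pools of different genotypes shared litters.

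In the mammalian heart, atrial and ventricular myocytes build the same contractile apparatus from partly different light chains, and the atrial pair is encoded by Myl7 and Myl4. Atrial myocytes also store and secrete natriuretic peptides, carry a potassium channel that acetylcholine opens, and restrain their calcium pump with sarcolipin, where ventricular myocytes mainly use phospholamban. GATA factors and Notch signalling both act in the formation of the heart, and the promoter of Nppa is a well-known target of cardiac GATA factors.

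Since one genotype lacks a GATA factor, the promoters of the atrial genes are shown first. RefSeq promoter windows of 250 bases that end at the base before the gene start, on the mouse build GRCm38.p6, matched 7 of the 8 genes. The motif searched was GATAA or GATAG right after an A or a T, on either strand, and 26.5% of 32851 RefSeq promoter windows of that length held it. It lay in the windows of Nppa, Stard10, Bmp10 and Myl7, and not in those of Kcna5, Kcnj3 and Myl4. Nppa (chr4:148000472-148000721, plus strand) held 1 match, at -122 to -117 relative to the start. Myl7 (chr11:5898783-5899032, minus strand) held 1 match at -42 to -37, and its window was the only one of the 7 with a CArG box, the site of serum response factor, which 1.47% of all windows held. Bmp10 (chr6:87428744-87428993, plus strand) held 2 matches, at -219 to -214 and at -33 to -28. Myl4 (chr11:104550413-104550662, plus strand), whose RNA varied with that of Myl7 over the pools, held none. A match describes letters in a window, and binding was not measured. The sequences of these 4 windows run 5′ to 3′ on the strand of the gene, with the matches in capitals.
Nppa: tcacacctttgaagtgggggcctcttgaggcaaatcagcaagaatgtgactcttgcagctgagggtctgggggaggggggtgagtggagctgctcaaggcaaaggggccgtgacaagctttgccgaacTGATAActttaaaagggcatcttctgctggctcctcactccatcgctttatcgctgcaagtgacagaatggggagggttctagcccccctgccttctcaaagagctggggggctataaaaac
Myl7: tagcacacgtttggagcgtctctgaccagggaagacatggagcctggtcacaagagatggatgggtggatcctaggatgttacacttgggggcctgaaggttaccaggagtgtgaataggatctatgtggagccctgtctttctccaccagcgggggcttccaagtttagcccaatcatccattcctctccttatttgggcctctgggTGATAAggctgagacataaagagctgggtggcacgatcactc
Bmp10: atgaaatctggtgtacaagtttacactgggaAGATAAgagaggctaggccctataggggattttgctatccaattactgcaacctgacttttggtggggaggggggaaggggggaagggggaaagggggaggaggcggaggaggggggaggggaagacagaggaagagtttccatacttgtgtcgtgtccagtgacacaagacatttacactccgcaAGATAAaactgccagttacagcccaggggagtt
Myl4: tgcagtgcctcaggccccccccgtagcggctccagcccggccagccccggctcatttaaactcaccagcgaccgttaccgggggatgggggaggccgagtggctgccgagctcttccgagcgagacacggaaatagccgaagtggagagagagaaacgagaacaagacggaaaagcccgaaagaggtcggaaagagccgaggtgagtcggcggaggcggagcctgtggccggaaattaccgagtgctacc

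Library totals ranged over 13866604 to 25059653 counts, at which 3 counts, the limit that a count of 0 allows, stand for 0.124 to 0.207 CPM, a gene's count relative to the scaled total of its library. Gata5 had 0 counts in each of the 4 Gata5-null libraries, against 97, 112, 98 and 15 counts in double-heterozygous and 56, 18, 46 and 19 counts in wildtype replicates 1 to 4. Its mean was higher in double-heterozygous pools, said to lack 1 copy, at 4.09 ± 2.27 CPM than in wildtype pools at 1.77 ± 1.03 CPM (SD, n = 4 each), with overlapping groups. One Gata5-null library (replicate 3) had 6000 genes at 0 and one wildtype library (replicate 2) had 3208, against 1017 to 2908 in the other 10. These 2 libraries stand apart, so fold changes and shares that move by over 1.5 times without them are also given without them. Genes of all heart muscle were abundant in every pool. The summed level of 15 such genes was 40628 to 58111 CPM in Gata5-null pools, 31148 to 59162 CPM in double-heterozygous pools and 25685 to 54126 CPM in wildtype pools. The summed level of 8 genes of valve interstitial cells, which mark the labelled tissue, was 21411 to 24392 CPM in Gata5-null, 21656 to 25785 CPM in double-heterozygous and 19540 to 23888 CPM in wildtype pools. Of 9 skeletal muscle markers Myh2, Myh4, Mylpf, Myog and Myod1 had no row in the count table.

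Against wildtype, no atrial gene passed the test in either mutant genotype, while 7 of the 8 had lower fitted levels in Gata5-null pools and 6 of 8 in double-heterozygous pools. The test was edgeR's quasi-likelihood test, with p-values adjusted by Benjamini-Hochberg over 19346 genes and a call at an adjusted p under 0.05. In Gata5-null against wildtype pools it called 0 of the 8 atrial genes and 0.0258% of all genes tested. At an unadjusted p under 0.05, 3 of 8 passed, against 5.4% of all genes. The 8 were chosen with earlier results of these data known, so such counts are not independent of that choice. Stard10 and Nppa were lower, 2 of 8 against 3.36%, and Kcna5 was higher, 1 of 8 against 2.04%. In double-heterozygous against wildtype pools it called 0 of 8, with 0% of all genes called, and at an unadjusted p under 0.05 it was 0 of 8 against 1.25%. Between Gata5-null and double-heterozygous pools it called 0 of 8, with 0% of all genes called, and the unadjusted count was 1 of 8 (Bmp10, lower) against 3.18%, or against 2.08% with lower genes alone. Of the 266 counts with which Bmp10 passed the low-count filter, 216 came from double-heterozygous pools. Its lower value in this comparison is therefore not independent of the filter. DESeq2 called 0 of 8 in each comparison as well, and its calls over all genes, few in each comparison, are given at the end.

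**Figure D1:**
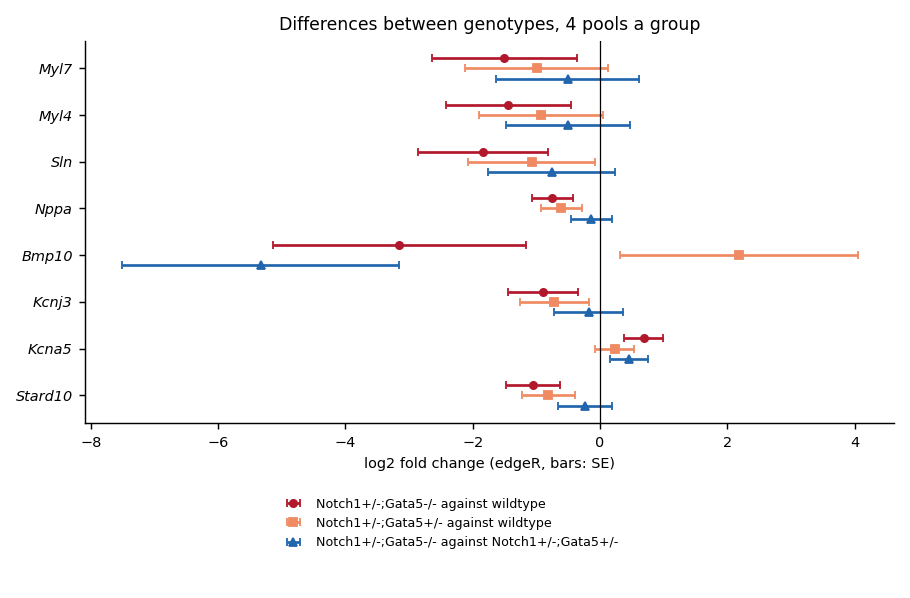
Log2 fold change of each atrial gene from edgeR (x axis, with its standard error as bar) for 3 comparisons, with 4 pools a group. In Gata5-null against wildtype pools 7 of the 8 genes lie left of 0 and Kcna5 lies right of it at 0.69, and the bars of Bmp10 are the widest.

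The median log2 fold change of the 8 genes was -1.24 in Gata5-null against wildtype pools, beside -0.03 over all genes tested, of which 53.9% were below 0. It was -0.76 in double-heterozygous against wildtype pools, beside 0.00 over all genes, of which 49.7% were below 0. It was -0.37 between Gata5-null and double-heterozygous pools, beside -0.04 and 55.4%, and apart from Bmp10 the genes lay between -0.76 (Sln) and 0.46 (Kcna5). Single pools carried much of these medians. Without wildtype replicate 3 they were -0.81 in Gata5-null and -0.29 in double-heterozygous against wildtype pools, and without both libraries that stand apart the first was -2.02. Without double-heterozygous replicate 4 the median between Gata5-null and double-heterozygous pools turned to 0.43. Both comparisons with wildtype share the same 4 wildtype pools, and several of the 8 genes varied together, so these values are not separate observations. In RNA of whole pools, fewer atrial cells, less RNA per atrial cell and a change in RNA of these genes from other cells cannot be told apart.

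The 8 genes spanned a wide range of levels. Per length of the principal transcript and averaged over the 12 pools, Myl7 had 112 ± 117 CPM per kilobase (SD, n = 12) and Myl4 had 105 ± 105, so their order was well within the spread. Nppa followed at 50.03 ± 18.4 and Sln at 13.5 ± 16.2. This order is one of means, and the ranges over the pools overlapped. Per kilobase, Myl7 ran from 7.70 to 347, Nppa from 19.6 to 76.6 and Sln from 2.06 to 57.4 CPM. Stard10 at 6.32 ± 3.03 and Kcna5 at 5.55 ± 1.83 did not differ beyond their spread. Kcnj3 had 1.82 ± 1.25 and Bmp10 had 0.245 ± 0.434 CPM per kilobase.

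**Figure D2:**
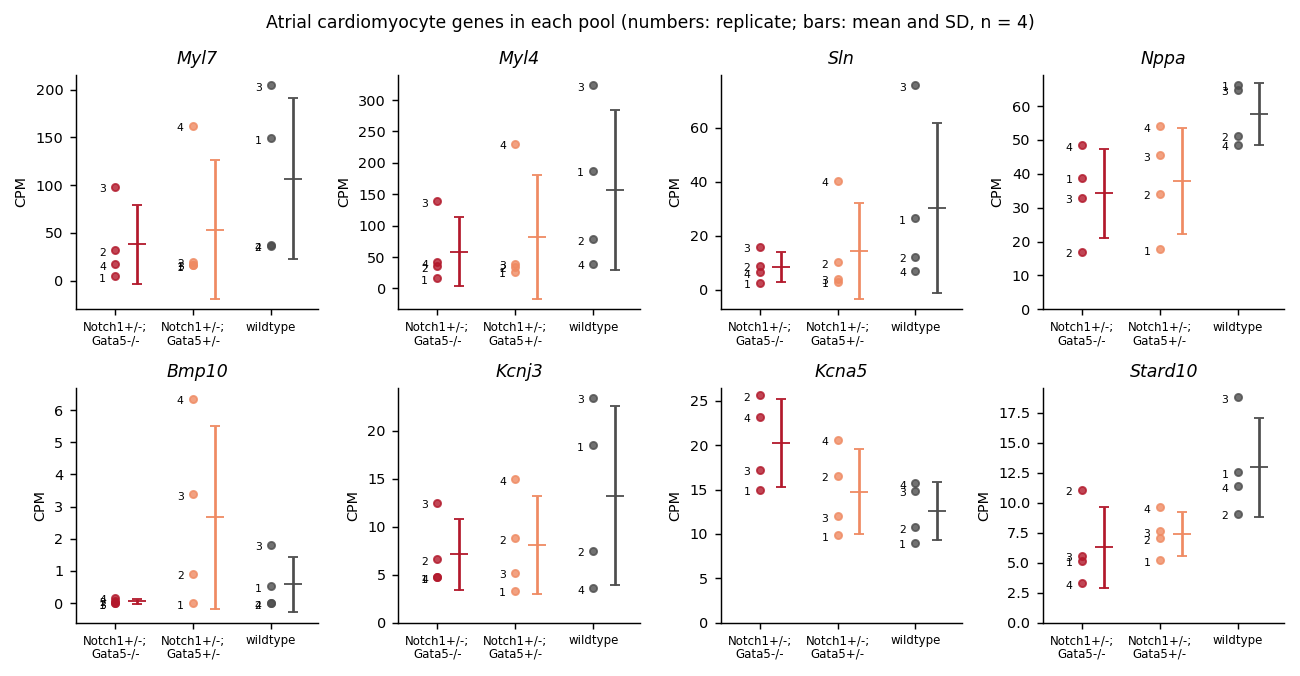
Level of each atrial gene in CPM (y axis, linear) in the 4 pools of each genotype, each point marked with its replicate number, with the mean and SD beside the points. Double-heterozygous replicate 4 stands far above the other 3 pools of its group for Myl7, Myl4 and Sln, and the Gata5-null and wildtype pools of Nppa lie on separate sides of a narrow gap.

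Myl7, the regulatory light chain of atrial myosin, differed more between pools of one genotype than between genotypes. It had 4.54, 31.6, 98.0 and 17.0 CPM in Gata5-null replicates 1 to 4, against 16.0, 19.5, 16.5 and 162 CPM in double-heterozygous and 149, 37.1, 205 and 36.5 CPM in wildtype replicates. All 3 groups overlapped, with 1 high pool in each mutant genotype and 2 in wildtype, and the highest of the 12 pools had 45.02 times the level of the lowest. The log2 fold change was -1.51 (SE 1.14, edgeR adjusted p = 1) in Gata5-null and -0.997 (SE 1.12, edgeR adjusted p = 1) in double-heterozygous against wildtype pools. The groups overlapped in both, and 3 of 4 pools of each mutant genotype lay below all 4 wildtype pools (exact permutation p = 0.171 for Gata5-null and 0.200 for double-heterozygous pools, two-sided). The value for Gata5-null pools was -2.88 without both libraries that stand apart, -2.59 without Gata5-null replicate 3 and -0.98 without wildtype replicate 3. Without double-heterozygous replicate 4, the value for that genotype was -2.62, and without wildtype replicate 3 it was -0.47.

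Myl4, the essential light chain of atrial myosin, had 16.3, 35.6, 139 and 41.7 CPM in Gata5-null replicates 1 to 4. It had 26.1, 34.1, 39.5 and 230 CPM in double-heterozygous and 187, 78.1, 324 and 39.3 CPM in wildtype replicates. The pools that were high for Myl7 were the high ones here too, and the groups overlapped. The log2 fold change was -1.44 (SE 0.99, edgeR adjusted p = 1) in Gata5-null and -0.93 (SE 0.97, edgeR adjusted p = 1) in double-heterozygous against wildtype pools, and without both libraries that stand apart the first was -2.55. It was -0.81 without wildtype replicate 3 and -2.33 without Gata5-null replicate 3, and the second was -0.30 without wildtype replicate 3 and -2.24 without double-heterozygous replicate 4. The ratio of Myl7 to Myl4 in CPM stayed within 0.280 to 0.929 over the 12 pools, while the level of Myl4 ranged 19.9-fold.

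Myl2 and Myl3 encode the ventricular light chains that take the places of Myl7 and Myl4, so the share of the atrial form can be read within a library, free of its scaling. Myl7 took 0.589%, 2.90%, 8.27% and 1.27% of the counts of Myl7 and Myl2 in Gata5-null replicates 1 to 4, against 2.59%, 2.08%, 2.59% and 12.9% in double-heterozygous and 16.5%, 10.501%, 14.9% and 3.48% in wildtype replicates. Exact 95% binomial intervals reached at most 0.715 percentage points to a side and cover counting error only. The mean share was 3.26% ± 3.48 in Gata5-null, 5.05% ± 5.27 in double-heterozygous and 11.4% ± 5.85 in wildtype pools (SD, n = 4 each). In every genotype but wildtype, only 1 pool lay above 5%, and in wildtype only replicate 4 lay below it. The difference of Gata5-null minus wildtype was -8.11 percentage points (exact permutation p = 0.0571, adjusted p = 0.257 over 12 share tests, two-sided) and did not pass. Without both libraries that stand apart, the means were 1.59% ± 1.19 in Gata5-null and 11.7% ± 7.13 in wildtype pools (SD, n = 3 each), a difference of -10.1 points. The double-heterozygous minus wildtype difference was -6.32 points (exact permutation p = 0.171, adjusted p = 0.294).

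For the second pair of light chains, Myl4 took 4.57% ± 4.70 of the counts of Myl4 and Myl3 in Gata5-null, 5.61% ± 4.49 in double-heterozygous and 12.7% ± 6.99 in wildtype pools (SD, n = 4 each). Gata5-null minus wildtype was -8.10 points (exact permutation p = 0.0571, adjusted p = 0.257). With the 2 libraries that stand apart left out, the means were 2.24% ± 0.724 in Gata5-null and 12.5% ± 8.56 in wildtype pools (SD, n = 3 each), a difference of -10.3 points. In wildtype, 3 pools lay at 13.1% to 18.8% and replicate 4 at 2.79%, within the range of the mutant pools. The ventricular genes themselves had means of 1058 ± 226, 807 ± 237 and 811 ± 372 CPM for Myl2 in Gata5-null, double-heterozygous and wildtype pools, and of 1258 ± 209, 1141 ± 403 and 1067 ± 413 CPM for Myl3. Neither gene passed the test in any comparison. A list of 10 tested genes held myosin chains, Myl2 and Myl3 among them, and the kinase gene Mylk3. Of these 10, 0 were called in Gata5-null against wildtype pools, 6 had a positive and 4 a negative log2 fold change.

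**Figure D3:**
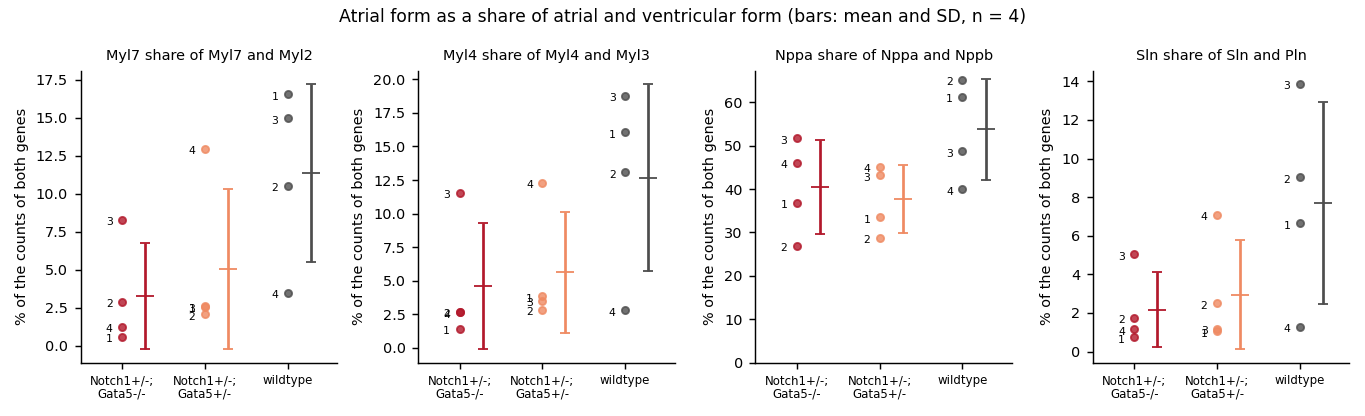
Share of the atrial form in the summed counts of an atrial gene and its ventricular or related partner (y axis, percent) for 4 pairs in the pools of each genotype, with the mean and SD of 4 pools. For Myl7 with Myl2 the Gata5-null mean is 3.26% and the wildtype mean 11.4%, with 1 wildtype pool at 3.48%.

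Sln encodes sarcolipin, a small membrane protein that inhibits the calcium pump of the sarcoplasmic reticulum. It had 2.72, 9.001, 16.0 and 6.48 CPM in Gata5-null replicates 1 to 4, against 2.97, 10.3, 4.03 and 40.3 CPM in double-heterozygous and 26.5, 12.2, 75.7 and 7.01 CPM in wildtype replicates. One wildtype pool, replicate 3, was far above the others, and the groups overlapped. For Sln the log2 fold change was -1.84 (SE 1.02, edgeR adjusted p = 1) in Gata5-null and -1.07 (SE 0.997, edgeR adjusted p = 1) in double-heterozygous against wildtype pools. Without wildtype replicate 3 these were -0.84 and -0.08, so that 1 pool carried much of both values, and without double-heterozygous replicate 4 the second was -2.40. Without both libraries that stand apart the first was -2.58.

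Phospholamban, the related inhibitor encoded by Pln, had 431 ± 119, 387 ± 107 and 376 ± 183 CPM in Gata5-null, double-heterozygous and wildtype pools (SD, n = 4 each). Sln made up 2.17% ± 1.96, 2.95% ± 2.84 and 7.71% ± 5.23 of the counts of Sln and Pln in the same order of groups. The difference of Gata5-null minus wildtype was -5.54 points (exact permutation p = 0.0857, adjusted p = 0.257) and did not pass, with wildtype replicate 4 at 1.28%. Without wildtype replicate 3 it was -3.48 points, and without both libraries that stand apart the means were 1.22% ± 0.512 in Gata5-null and 7.27% ± 6.32 in wildtype pools (SD, n = 3 each). Of 9 tested genes of calcium handling, Pln and the exchanger gene Slc8a1 among them, 0 were called in Gata5-null against wildtype pools. They had 5 positive and 4 negative log2 fold changes and a median of 0.03. Atp2a1 was lower at an unadjusted edgeR p under 0.05, 1 of 9 against 3.36% of all genes. It had 0 counts in Gata5-null pools and a low wildtype mean of 0.84 ± 0.576 CPM. The pump itself, Atp2a2, had a log2 fold change of -0.09 (SE 0.29).

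Nppa, the precursor of atrial natriuretic peptide, was the gene whose Gata5-null and wildtype pools did not overlap. It had 38.8, 17.0, 33.0 and 48.4 CPM in Gata5-null replicates 1 to 4, against 17.6, 34.2, 45.5 and 54.1 CPM in double-heterozygous and 66.2, 51.2, 64.8 and 48.5 CPM in wildtype replicates. The gap between the highest Gata5-null and the lowest wildtype pool was narrow, 48.41 against 48.52 CPM. Non-overlap in that direction held for 1 of the 8 atrial genes and for 1.99% of all genes tested, or 2.93% in either direction. The log2 fold change was -0.75 (SE 0.32, edgeR p = 0.0356, adjusted p = 0.872) in Gata5-null against wildtype pools, and the exact permutation p of 0.0286 is the smallest that 4 against 4 pools can give. In double-heterozygous against wildtype pools it was -0.61 (SE 0.32, edgeR adjusted p = 1), with 3 of 4 pools below all wildtype pools (exact permutation p = 0.0857), and without double-heterozygous replicate 1 it was -0.37. No gene of the 8 had groups without overlap in that comparison, where 2.24% of all genes did, or between both mutant genotypes, where 2.73% did.

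Nppa overlaps on the opposite strand an antisense gene, Gm13054, which reached at most 2.48 CPM, in Gata5-null replicate 4, and was at 0 counts in 8 of the 12 pools. The strand setting of the counting is not given in the sources used here, so reads of both genes may be shared. Annotated transcripts on the opposite strand also overlap exons of Kcnj3 and Myl4, but have no row in the count table. Nppb, the precursor of the related B-type peptide, had 50.01 ± 15.2, 61.3 ± 20.5 and 52.6 ± 21.7 CPM in Gata5-null, double-heterozygous and wildtype pools. Nppa took 40.4% ± 10.8, 37.7% ± 7.84 and 53.8% ± 11.6 of the counts of both in the same order of groups. The groups overlapped, and the differences from wildtype were -13.4 points for Gata5-null (exact permutation p = 0.143, adjusted p = 0.294, and -8.93 points without Gata5-null replicate 2) and -16.1 points for double-heterozygous pools (exact permutation p = 0.0857, adjusted p = 0.257). Of 9 genes of related peptides and of their processing, receptors and breakdown, 0 were called in Gata5-null against wildtype pools, and 7 had a negative log2 fold change, with a median of -0.09. Npr2, a receptor of C-type natriuretic peptide, had 0.38 (SE 0.16, edgeR adjusted p = 0.860) and Corin, the protease that cleaves the Nppa product, had -0.15 (SE 0.22).

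Bmp10, a secreted ligand made by atrial myocytes, was at or near the limit of detection. It had 0, 1, 0 and 4 counts in Gata5-null replicates 1 to 4, against 0, 18, 67 and 131 counts in double-heterozygous and 10, 0, 35 and 0 counts in wildtype replicates. The counts of the Gata5-null pools came to 5 in all, and 3 of the double-heterozygous pools were above every Gata5-null pool, while the first had none. In CPM the means were 0.0575 ± 0.0780, 2.66 ± 2.85 and 0.582 ± 0.854 in Gata5-null, double-heterozygous and wildtype pools (SD, n = 4 each). Between Gata5-null and double-heterozygous pools the fitted log2 fold change was -5.33 (SE 2.17, edgeR p = 0.0217, adjusted p = 1), with overlapping groups (exact permutation p = 0.143). It was -3.15 (SE 1.98, edgeR adjusted p = 1) in Gata5-null and 2.18 (SE 1.87, edgeR adjusted p = 1) in double-heterozygous against wildtype pools, and wildtype replicate 3 held 35 of the 45 wildtype counts. Without that pool these were -1.44 and 3.90, and without double-heterozygous replicate 4 the second was 1.29. With so many pools at 0, fitted values depend on the constant added to the counts. Most counts that took Bmp10 past the low-count filter were double-heterozygous, so values against that group are not independent of the filter. Of 10 genes of its receptors, related ligands and targets, 0 were called in Gata5-null against wildtype pools, and the type II receptor gene Bmpr2 had a log2 fold change of -0.19 (SE 0.12).

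Kcnj3 encodes a subunit of the potassium channel that acetylcholine opens in atrial and pacemaker cells. It had 4.73, 6.61, 12.5 and 4.71 CPM in Gata5-null replicates 1 to 4, against 3.33, 8.79, 5.19 and 15.0 CPM in double-heterozygous and 18.5, 7.51, 23.5 and 3.56 CPM in wildtype replicates. Wildtype replicate 4 was lower than every Gata5-null pool, and the groups overlapped. For Kcnj3 the log2 fold change was -0.90 (SE 0.55, edgeR adjusted p = 1) in Gata5-null and -0.72 (SE 0.54, edgeR adjusted p = 1) in double-heterozygous against wildtype pools. Without wildtype replicate 3 these were -0.47 and -0.29, without double-heterozygous replicate 4 the second was -1.20 and without its replicate 1 -0.46, and without both libraries that stand apart the first was -1.50. Kcnj5, the partner subunit of the same channel, had -0.21 (SE 0.32) and -0.35 (SE 0.32) in the same comparisons.

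Kcna5 encodes a voltage-gated channel that carries the ultrarapid potassium current of human atria, and in mice it is also active in ventricular muscle. It was the one gene of the 8 with a positive fitted difference between Gata5-null and wildtype pools. Its levels were 15.0, 25.6, 17.2 and 23.2 CPM in Gata5-null replicates 1 to 4, against 9.84, 16.6, 11.99 and 20.6 CPM in double-heterozygous and 8.99, 10.7, 14.9 and 15.7 CPM in wildtype replicates. Of the Gata5-null pools 3 were above all 4 wildtype pools, and replicate 1, at 15.0 CPM, lay within them. For Kcna5 the log2 fold change was 0.69 (SE 0.30, edgeR p = 0.0333, adjusted p = 0.872, exact permutation p = 0.0571) in Gata5-null and 0.23 (SE 0.30, edgeR adjusted p = 1) in double-heterozygous against wildtype pools, and with 1 pool left out the second ran between 0.03, without double-heterozygous replicate 4, and 0.38, without double-heterozygous replicate 1. Of 14 other potassium channel subunits of heart muscle, 0 were called in Gata5-null against wildtype pools, and 10 had negative log2 fold changes. Kcnd3, a subunit of the transient outward current, had -1.01 (SE 0.42, edgeR adjusted p = 0.849) and Kcnq1, of the slow delayed rectifier, had 0.84 (SE 0.43, edgeR adjusted p = 0.986).

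Stard10, a lipid transfer protein, had 5.15, 11.1, 5.58 and 3.26 CPM in Gata5-null replicates 1 to 4. It had 5.21, 7.03, 7.61 and 9.61 CPM in double-heterozygous and 12.5, 9.06, 18.8 and 11.4 CPM in wildtype replicates. All 4 wildtype pools were above 3 of 4 pools of each mutant genotype, and 1 pool of each kept the groups from separating. Stard10 had a log2 fold change of -1.05 (SE 0.42, edgeR p = 0.0208, adjusted p = 0.840) in Gata5-null and -0.81 (SE 0.42, edgeR adjusted p = 1) in double-heterozygous against wildtype pools (exact permutation p = 0.0571 for each). Between Gata5-null and double-heterozygous pools it was -0.24 (SE 0.42), and with 1 pool left out it ran between -0.66, without Gata5-null replicate 2, and -0.02, without Gata5-null replicate 4.

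The authors' deposited table, which names no comparison and whose log2 fold changes equal those of Gata5-null against wildtype pools in a DESeq2 refit to within 0.000166, lists all 8 genes as not significant. In the authors' deposited table the adjusted p-values of the 8 genes ran upward of 0.627, the value of Stard10, to 0.970 for Myl7.

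The atrial genes were not all highest in the same pools. Myl7, Myl4, Sln and Kcnj3 were each highest in the same 4 pools, namely wildtype replicates 1 and 3, double-heterozygous replicate 4 and Gata5-null replicate 3, so every genotype held at least 1 of them. Over the 12 pools the log2 CPM of Myl4 and Myl7 correlated with Pearson's r = 0.96 (permutation p = 1e-05, the smallest that 100000 permutations can give, adjusted p = 0.00018 over 36 relations) and Spearman's rho = 0.90 (permutation p = 0.00025, adjusted p = 0.003). Without the 2 pools farthest from the median of Myl4, r was 0.94, and after the group means were removed it was 0.95. Among the 6 pairs of these 4 genes r ranged over 0.84 to 0.96 and rho over 0.76 to 0.97. The largest adjusted permutation p was 0.00498 for r and 0.031 for rho, and without the 2 farthest pools r ranged over 0.72 to 0.94. The pools share their library scaling across genes, and the 8 genes were chosen with earlier results of these data known, so these values describe the pools.

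The other 4 genes had lower correlations with Myl7. Nppa had r = 0.44 with Myl7 (permutation p = 0.151, adjusted p = 0.272) and rho = 0.64 (permutation p = 0.0298, adjusted p = 0.0975), and r was 0.56 without the 2 pools farthest from the median of Nppa. With Myl4, Nppa had r = 0.58 (permutation p = 0.0468, adjusted p = 0.136), 0.59 without the same 2 pools, and rho = 0.73 (permutation p = 0.00982, adjusted p = 0.0442). Stard10 had r = 0.66 with Myl7 (permutation p = 0.019, adjusted p = 0.0856) and rho = 0.74 (permutation p = 0.00807, adjusted p = 0.0415), and r was 0.56 without 2 pools. Kcna5 had r = -0.02 with Myl7 (permutation p = 0.956, adjusted p = 0.956) and rho = 0.03 (permutation p = 0.921, adjusted p = 0.938), and r was 0.25 without 2 pools. Bmp10 had r = 0.42 with Myl7 (permutation p = 0.178, adjusted p = 0.306) and rho = 0.35 (permutation p = 0.269, adjusted p = 0.344), and r was 0.49 without 2 pools. After the group means were removed, r with Myl7 was 0.21 for Nppa, 0.51 for Stard10, 0.38 for Kcna5 and 0.55 for Bmp10. The difference between these correlations was not tested.

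**Figure D4:**
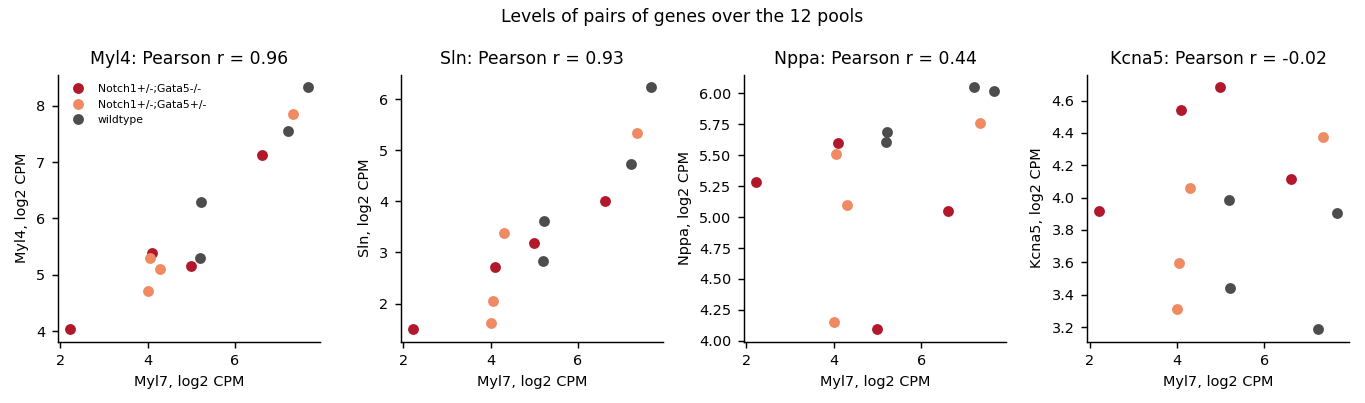
Log2 CPM of Myl4, Sln, Nppa and Kcna5 (y axes) against log2 CPM of Myl7 (x axes), 1 point for each of the 12 pools, coloured by genotype. The points of Myl4 and Sln lie along a line with pools of each genotype on it, while those of Kcna5 show no slope over all 12 pools (r = -0.02).

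Levels of the atrial light chains were also set against heart muscle as a whole. The mean log2 CPM of the 15 genes of all heart muscle correlated with Myl7 at r = 0.33 (permutation p = 0.300, adjusted p = 0.432, rho = 0.43 with permutation p = 0.169 and adjusted p = 0.278, and r = 0.19 without 2 pools). With Kcna5 it correlated at r = 0.62 (permutation p = 0.0286, adjusted p = 0.114, rho = 0.55 with permutation p = 0.067 and adjusted p = 0.151, and r = 0.77 without 2 pools). With this score as a covariate, the log2 fold change in Gata5-null against wildtype pools was -1.59 for Myl7, -1.56 for Myl4, -0.85 for Nppa, -1.12 for Stard10 and 0.57 for Kcna5, and none was called. With the mean log2 CPM of Myl4 and Myl7 as a covariate instead, a setting chosen after the data were seen, it was -0.03 for Sln, 0.21 for Kcnj3, -0.53 for Nppa, -0.72 for Stard10 and 0.84 for Kcna5. Sln and Kcnj3 correlated with Myl4 and Myl7 at r of 0.84 to 0.95. The shift of Sln and Kcnj3 toward no difference was thus built into this setting.

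**Figure D5:**
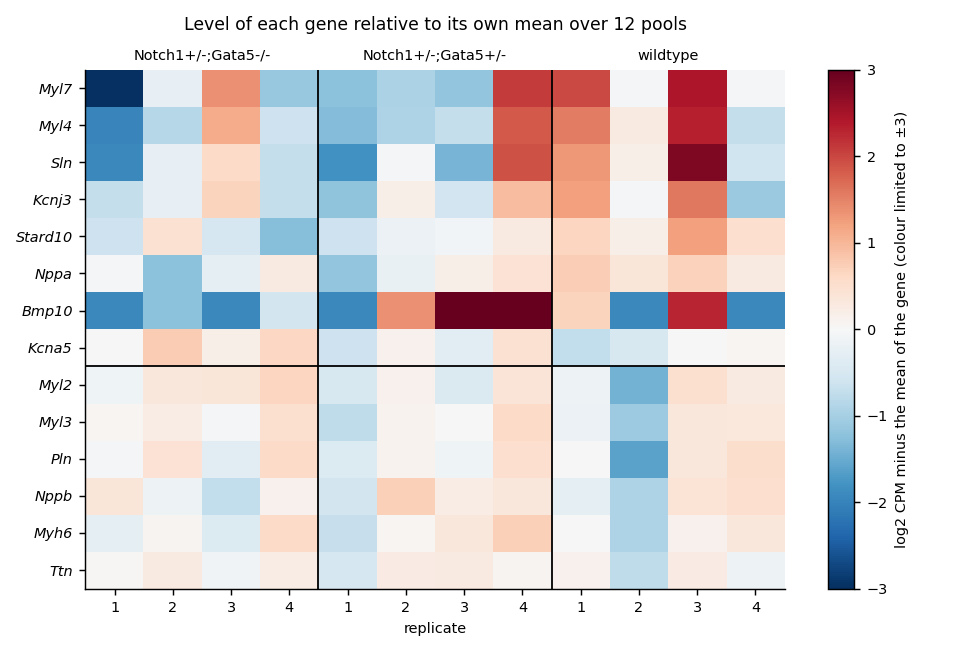
Log2 CPM of each gene minus its own mean over the 12 pools (colour, limited to 3 in either direction). The atrial genes followed here lie above the black line, their partner genes and general heart muscle genes under it. Pools run by genotype and replicate along the x axis. Wildtype replicate 3 and double-heterozygous replicate 4 are red for Myl7, Myl4, Sln and Kcnj3, and wildtype replicate 2 is blue for Myl2, Myl3 and Pln.

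For 7 of the 8 genes, more of the variance lay within genotypes than between them, and Stard10 was the exception. The SD of log2 CPM over the 12 pools was 1.67 for Myl7, 1.46 for Sln, 1.38 for Myl4 and 0.93 for Kcnj3, beside a median of 0.58 over all genes tested and 0.40 over genes with a mean log2 CPM of at least 1. For Stard10, Nppa and Kcna5 it was 0.68, 0.64 and 0.48. Differences between genotypes held 24.4% of the variance of Myl7, 22.2% of that of Sln, 21.99% of that of Myl4 and 10.96% of that of Kcnj3. They held 51.5% of that of Stard10, 39.8% of that of Kcna5 and 35.6% of that of Nppa, beside a median of 14.2% over all genes.

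Other genes known from atrial or neighbouring muscle were read from lists. Of 12 other atrial genes, 11 were tested and 0 were called in Gata5-null against wildtype pools, while 10 had negative log2 fold changes, with a median of -0.21. Mybphl, a myosin-binding protein of atrial muscle, had -3.90 (SE 1.68, edgeR adjusted p = 0.860) on a mean of 0.258 ± 0.516 CPM in Gata5-null and 4.06 ± 3.30 CPM in wildtype pools, with 3 of 4 Gata5-null pools at 0 counts. The most abundant of them, Pam, the enzyme that amidates peptides and a membrane protein of atrial secretory granules, had 1495 ± 114 CPM in Gata5-null and 1757 ± 103 CPM in wildtype pools (log2 fold change -0.23, SE 0.10, edgeR adjusted p = 0.870). Both had an unadjusted p under 0.05 without being called. Pam stayed within 1365 to 1898 CPM over all pools, while Myl7 ran from 4.54 to 205 CPM. Which cells the Pam RNA came from was not tested.

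Genes of the pacemaker and conduction system, which lies in and beside the atria, had 0 of 7 tested genes called and 5 of 7 with negative log2 fold changes. Of the 8 ventricular genes and the 15 genes of all heart muscle 0 were called in Gata5-null against wildtype pools, with 5 of 8 and 12 of 15 positive log2 fold changes and medians of 0.18 and 0.12. Of 15 tested transcription factors that act on atrial genes, 0 were called, with a median of -0.13. Gata5 was among them and was not called, though it had 0 counts in every Gata5-null pool and a wildtype mean of 1.77 CPM. The lack of a call thus does not show that levels were equal. Of 8 valve interstitial and 8 endocardial genes 0 were called, with medians of 0.04 and 0.07. Of 8 smooth muscle genes 3 were called lower (Mylk, Myh11 and Cnn1), beside 0.0258% of all genes called, and the median of the 8 was -0.70. No gene of any list was called in the fit of only the 8 libraries compared, which called 0 genes in all. The share of atrial, pacemaker or smooth muscle tissue in a pool, and its part in the values of the atrial genes, was not tested.

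The genes whose log2 CPM ran most like each atrial gene over the 12 pools were taken from 12031 genes with a mean log2 CPM of at least 1, leaving out the 8 themselves, genes with no symbol and genes named as predicted, clone or pseudogene models. They were picked as the best of that number, so r is a description. Cacna2d2, a calcium channel subunit, was among the closest 3 for Sln (r = 0.85), Myl4 (r = 0.84) and Myl7 (r = 0.84). Beside it stood Rhobtb1 and Dhx16 for Sln, Cdadc1 for Myl4, and Lca5 (r = 0.87) and Ryr3 (r = 0.83), a calcium release channel, for Myl7. For Kcnj3 they were Rmdn1 (r = 0.81), Rabgap1l and Cntn2, a cell adhesion molecule of the conduction system, and Cntn2 stood again beside Htra3 (r = 0.88) and Map1s for Stard10. Nppa ran most like Map7d3 (r = 0.88), Eml2 and Specc1l, Bmp10 like Cyp4b1 (r = 0.87), Hk2 and Mcf2l, and Kcna5 like Fahd1 (r = 0.89), the mitochondrial gene ND1 (r = 0.88) and Tmem201.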

How the data were processed

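The authors deposited raw counts per gene for 12 libraries, and a table for 1 unnamed comparison. That deposited table gives, per gene, a normalized signal averaged over libraries, the log2 fold change, 2 scores (its standard error and Wald statistic) and raw and adjusted p-values. Per the submitters' processing notes, Trim Galore, STAR 2.7.10b, DESeq2 1.34.0 and GRCm39 were used, while no counting tool, annotation or strand setting is named there. Symbols came from the deposited table (13959 genes) and from GENCODE M21 (6062), and 584 genes had none.

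The count test used edgeR 4.0.16 under R 4.3.3 (filterByExpr, TMM, robust quasi-likelihood fit of all 12 libraries with a term per group, Benjamini-Hochberg over 19346 genes), which was tested on simulated data. The common biological coefficient of variation was 0.68. CPM is TMM-scaled, and log2 CPM has a prior count of 2. Exact permutation tests compared CPM or shares of counts, 4 pools against 4, two-sided. Alternatives were RLE scaling, no filter, a filter of CPM of at least 1 in 4 libraries, DESeq2 1.42.0, fits of only the 8 libraries compared, fits without each library in turn, the replicate block, no libraries that stand apart, and 2 covariates. Symbols of the 8 genes, lists and tests were chosen with earlier results of these data known. Named genes are the 8, up to 2 with the smallest p per list, fixed partner genes and the 3 most correlated genes of each of the 8, of which some are not reported here. Others (Atp2a2, Cnn1, Corin, Kcnj5) were chosen after their values were seen. Promoter sequences are from RefSeq, on GRCm38.p6.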

Additional observations from a re-analysis of the deposited data

Results flagged for a closer look

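In 5 of 36 sets of 4 pools, a pool stood so far from the other 3 that its gap exceeded the 95% limit of Dixon's test, which chance alone exceeds in about 1 of 20 groups. The sets share pools and genes, so the 5 are not separate events. Of these, 4 are double-heterozygous replicate 4, with 230.05 CPM of Myl4, 161.8 CPM of Myl7, a Myl7 share of 12.9% in Myl7 and Myl2, and a Myl4 share of 12.3% in Myl4 and Myl3. The other is Gata5-null replicate 3, with a Myl4 share of 11.6%, and it is also the library with the most genes at 0.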

How the results depend on the processing

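No atrial gene was called in any comparison under any setting run. Over all genes, the count called in Gata5-null against wildtype pools ran between 0 (only the 8 libraries compared) and 49 (DESeq2), with 21 without Gata5-null replicate 4, 2 without wildtype replicate 2 and 5 in the fit of all libraries. DESeq2 called 8 genes in double-heterozygous against wildtype pools and 13 between both mutant genotypes. Both comparisons with wildtype kept the direction of all 8 genes and 4 shares under every planned setting that gave a value. With the atrial light chain covariate, added after seeing the data, Kcnj3 turned to 0.21 and Bmp10 to 0.89 in Gata5-null, and Kcnj3 to 0.11 in double-heterozygous against wildtype pools. This covariate is the mean of Myl4 and Myl7, which varied with Sln and Kcnj3 over the pools. Between Gata5-null and double-heterozygous pools it turned Sln to 0.0083 and Kcnj3 to 0.10, and the heart muscle covariate turned Kcnj3 to 0.0027.

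Directions between Gata5-null and double-heterozygous pools depended on single pools. With 1 pool left out, log2 fold changes ran between -1.25 and 0.56 for Sln, -0.36 and 0.08 for Nppa, -0.59 and 0.30 for Kcnj3, -1.40 and 0.80 for Myl4 and -1.60 and 1.11 for Myl7, and the upper ends, all but that of Nppa, came without double-heterozygous replicate 4. Without that pool Nppa was at 0.080. Shares ran between -3.46 and 0.84 points for Myl7, -3.37 and 1.19 for Myl4, -1.04 and 7.21 for Nppa and -1.74 and 0.60 for Sln. Without both libraries that stand apart the share differences were -1.04 points for Nppa, -3.46 for Myl7, -3.37 for Myl4 and -1.74 for Sln. In that setting the log2 fold changes were -1.25 for Sln, -0.59 for Kcnj3, -1.40 for Myl4 and -1.60 for Myl7. The cause was not tested.

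Libraries with the same number did not deviate together (correlations of -0.033 to 0.095), so the numbers were not taken as pairs. With the replicate block 7 genes were called in Gata5-null against wildtype pools, 0 of them atrial, and Myl7 was at -1.78, Nppa at -0.83 and Kcna5 at 0.68. Bmp10 gave no value under the stricter filter or in the fits of 8 libraries that leave out double-heterozygous or wildtype pools. At these depths Bmp10 was at or under 3 counts in 6 pools, so its absence cannot be read.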
